A study of Homo sapiens with 12 samples.

Results

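The genes described here are 49 genes of the G1/S transition and of DNA replication, taken from a list of gene symbols. No threshold on a measured value entered the rule, but the list was chosen with earlier results of these data known. Counts of members set beside shares of all tested genes are therefore descriptions and not independent tests. The 49 genes stand among 19775 genes with a probe set of their own on the array, of which 18621 were tested. All 49 were among those tested. Each gene was read from 1 probe set, the one with the highest mean signal over the 12 arrays. The 49 genes have 89 probe sets in all, 25 genes having several, and the further ones are given where they bear on a result.

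The study used A549, an established human lung cancer cell line, and asked which transcripts change when FAM60A or SDS3 is depleted by siRNA. FAM60A, now named SINHCAF, and SDS3, now named SUDS3, are subunits of the SIN3 histone deacetylase complex, a co-repressor of transcription. Total RNA was hybridised to 12 arrays of 1 colour, 3 in each of 4 groups. The groups were A549 cells with FAM60A siRNA, their controls with non-targeting siRNA, A549 cells with SDS3 siRNA, and a separate set of controls with non-targeting siRNA. All groups were transfected at 50 nM with the reagent Dharmafect 1, a day after plating in F-12K medium with serum, and lysed 3 days after transfection; no untransfected cells were analysed here. The treatment protocol names 1 FAM60A siRNA and no SDS3 siRNA; effects through the target and other effects of the same siRNA cannot be told apart. Replicates are described in the labels as triplicate wells, so each p-value reflects how far these wells differ and may hold technical spread alone.

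The targeted transcripts were read first. SINHCAF had log2 intensities of 11.99, 11.97 and 12.01 in its controls and 9.36, 9.12 and 9.43 with FAM60A siRNA, which is 15.5% of control. SUDS3 had 10.11, 10.02 and 10.03 in its controls and 8.48, 8.32 and 8.62 with SDS3 siRNA, 33.4% of control. SINHCAF itself rose in the SDS3 knockdown (log2 change 0.35, SE 0.064, limma adjusted p = 0.00291). The 9 epithelial and A549 markers were present, with control means from 9.94 to 15.26 in the FAM60A experiment. In the FAM60A knockdown 3 fell and 1 rose, beside 17.6% and 19.2% of all tested genes. In the SDS3 knockdown 8 fell, beside 18.8%. Of 6 alveolar type 2 markers tested, 1 fell and 1 rose with FAM60A siRNA, beside 17.6% and 19.2%. With SDS3 siRNA 1 rose, beside 15.8% of all tested genes. The 13 markers of blood, endothelial and fibroblast cells on the array had group means between 4.35 and 8.61; their summed linear signal was 2550 to 2657 in the controls and 2363 to 2620 in the knockdown of the FAM60A experiment, and 1185 to 1210 and 1128 to 1172 in the SDS3 experiment. Of these markers 1 changed in the FAM60A knockdown and 2 changed in the SDS3 knockdown, LUM in both, beside 36.8% and 34.6% of all tested genes. An array intensity has no true zero, so none of these markers can be called absent. Array medians differed between the experiments, from 186 to 192.6 against 96.82 to 98.32 on the linear scale, and no level is set against one of the other experiment. Poly-A spike-in probe sets were higher in the knockdown arrays by 0.10 (log2) with FAM60A siRNA and by 0.32 with SDS3 siRNA (2-sided exact permutation p = 0.5 and 0.1, where 0.1 is the smallest p that 3 arrays against 3 allow). Probe sets of 18S rRNA were higher by 0.28 and 0.53 (exact permutation p = 0.1 in both). The 3′ minus 5′ signal of ACTB, a measure of RNA integrity, was lower by 0.094 on the log2 scale with FAM60A siRNA (exact permutation p = 0.1) and by 0.013 with SDS3 siRNA (p = 0.7), and that of GAPDH was higher by 0.00072 and 0.0048 (p = 1 in both); the part of these shifts in the results was not tested beyond the rescaled values given below.

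DNA replication is prepared in G1, when the origin recognition complex, CDC6 and CDT1 load the MCM2 to MCM7 helicase on chromatin. At the entry to S phase the kinase CDC7 with its activator DBF4, together with CDC45, the GINS complex and MCM10, turns the loaded helicase into a moving fork, where primase and the replicative polymerases, the PCNA clamp and its RFC loader, RPA and the flap and ligase enzymes copy the strands. Many of these genes are transcribed in a wave at G1/S under E2F factors, which RB-family proteins hold in check partly through histone deacetylase co-repressors. In bulk RNA, fewer cells in S phase and less RNA per cell cannot be told apart.

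Many members share a promoter word that the list did not use. RefSeq promoter sequences (GRCh38.p14, 250 bases before to 50 bases after the annotated start) were matched for 43 of the 49 genes, with 58 promoters. POLD3, GINS4, MCM4, MCM5, RPA2 and RPA3 were not matched. Any of 4 E2F-type words, TTTCCCGC, TTTCGCGC, TTTGCCGC or TTTGGCGC, on either strand, stood in 24 of the 58 promoters (41.4%), against 3.31% of all 35116 promoters of that length and 4.1% of those of protein-coding genes. The CCAAT box, on either strand, stood in 53.4% of the members' promoters and 34.6% of all promoters. The CHR word TTTGAA, on either strand, stood in 5.17% and 15.2%. The E2F-type words overlapped a CCAAT box in 1 member promoter and TTTGAA in none, and a match is a description and not a binding site.
The promoters of GINS1, MCM2 and DBF4 are shown because these genes had the largest falls with FAM60A siRNA, and those of ORC3, CDC6 and GINS3 because they had the largest falls with SDS3 siRNA. All 6 lie on the plus strand of GRCh38.p14 and are printed 5′ to 3′, with capitals on the E2F-type word, and positions are counted from the annotated start as 1. GINS1 is at chr20:25407423-25407722 with a word that begins at 6 and a CCAAT box at -13, MCM2 at chr3:127598161-127598460 with 2 overlapping words at 3 and 7, and ORC3 at chr6:87589885-87590184 with a word at -12 and a CCAAT box at -69. GINS3 is at chr16:58392221-58392520 with a word at -5, CDC6 at chr17:40287629-40287928 with a word at 8 and 3 CCAAT boxes, and DBF4 at chr7:87876243-87876542 with no E2F-type word and no CCAAT box in this window but the CHR word at -3.
GINS1: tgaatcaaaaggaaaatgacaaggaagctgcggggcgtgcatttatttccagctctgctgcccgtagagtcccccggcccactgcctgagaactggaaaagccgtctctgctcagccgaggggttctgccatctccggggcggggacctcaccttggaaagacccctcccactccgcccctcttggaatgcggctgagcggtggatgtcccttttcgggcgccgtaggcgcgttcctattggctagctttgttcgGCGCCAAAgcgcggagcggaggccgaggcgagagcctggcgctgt
MCM2: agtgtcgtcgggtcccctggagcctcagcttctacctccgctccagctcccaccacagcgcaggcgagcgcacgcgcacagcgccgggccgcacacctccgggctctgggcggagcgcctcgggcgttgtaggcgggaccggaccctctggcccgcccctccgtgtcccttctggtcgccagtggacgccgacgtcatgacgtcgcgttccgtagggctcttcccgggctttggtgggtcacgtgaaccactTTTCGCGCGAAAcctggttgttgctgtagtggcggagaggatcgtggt
DBF4: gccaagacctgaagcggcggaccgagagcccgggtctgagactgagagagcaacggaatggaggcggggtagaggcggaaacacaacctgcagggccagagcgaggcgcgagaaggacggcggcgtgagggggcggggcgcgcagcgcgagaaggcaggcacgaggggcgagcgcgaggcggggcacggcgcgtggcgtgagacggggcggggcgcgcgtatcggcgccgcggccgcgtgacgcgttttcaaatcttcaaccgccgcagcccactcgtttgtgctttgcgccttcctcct
ORC3: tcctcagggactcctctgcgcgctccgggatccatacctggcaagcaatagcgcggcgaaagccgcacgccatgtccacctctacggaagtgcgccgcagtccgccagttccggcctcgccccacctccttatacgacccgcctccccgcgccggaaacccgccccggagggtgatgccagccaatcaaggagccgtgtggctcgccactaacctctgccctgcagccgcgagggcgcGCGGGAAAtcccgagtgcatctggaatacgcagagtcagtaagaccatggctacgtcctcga
GINS3: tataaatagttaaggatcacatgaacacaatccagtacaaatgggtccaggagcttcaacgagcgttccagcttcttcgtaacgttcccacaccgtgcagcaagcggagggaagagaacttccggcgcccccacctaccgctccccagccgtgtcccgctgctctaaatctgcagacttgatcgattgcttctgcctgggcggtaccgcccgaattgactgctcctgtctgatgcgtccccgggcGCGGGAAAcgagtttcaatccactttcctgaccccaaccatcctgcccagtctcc
CDC6: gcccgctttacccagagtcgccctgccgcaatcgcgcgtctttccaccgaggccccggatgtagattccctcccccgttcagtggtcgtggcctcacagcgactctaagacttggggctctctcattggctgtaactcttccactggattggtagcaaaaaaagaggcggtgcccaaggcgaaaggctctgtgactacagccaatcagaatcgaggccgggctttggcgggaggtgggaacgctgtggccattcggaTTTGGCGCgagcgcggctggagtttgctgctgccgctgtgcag
The 6 sequences place an E2F-type word close to the start in 5 genes, and the other, DBF4, fell in both knockdowns. Over all matched members, 13 of the 23 genes with such a word in a promoter fell with FAM60A siRNA (median log2 change -0.18) and 5 with SDS3 siRNA (median -0.057). Of the 20 genes without the word, 12 fell with FAM60A siRNA (median -0.24) and 13 with SDS3 siRNA (median -0.23). Of all tested genes 17.6% fell with FAM60A siRNA and 18.8% with SDS3 siRNA. A link between the word and the changes was not tested.

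With FAM60A siRNA, 27 of the 49 genes fell, 3 rose and 19 did not pass (limma, adjusted p under 0.05 over all tested genes). That is a fall in 27 of 49 beside 17.6% of all tested genes that fell, and a rise in 3 of 49 beside 19.2% that rose; 36.8% of all tested genes passed in either direction. The median log2 change of the 49 was -0.18, beside -0.023 over all tested genes, and 41 of the 49 had a negative value. In 33 genes all 3 knockdown arrays lay below all 3 controls, beside 24.4% of all tested genes, and in 5 genes all lay above, beside 23.7% (48.1% in either direction). The changes were mostly small: 5 genes passed with at least a 1.5-fold change, beside 7.34% of all tested genes. With SDS3 siRNA, 20 genes fell and 4 rose, beside 18.8% and 15.8% of all tested genes (34.6% in either direction). The median was -0.12, beside 0.0064 over all tested genes, and 39 of the 49 values were negative. The arrays lay fully below the controls in 28 genes, beside 25.2% of all tested genes, and fully above in 5, beside 22.4% (47.6% in either direction). With at least 1.5-fold 5 genes passed, beside 6.96%. The shares of all genes were larger without dim genes. A filter at log2 7 kept all 49 members among 15026 genes. With FAM60A siRNA 31 members then fell and 3 rose, beside 21.6% and 24.2% of these genes (45.8% in either direction). With SDS3 siRNA 22 fell and 4 rose, beside 24.3% and 19.7% (44.1% in either direction).

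The counts moved with the scaling of the arrays. The deposited RMA values differed little in median within an experiment but did not share 1 distribution over the 12 arrays: beside the medians given above, the interquartile range of log2 values was 2.92 to 3.07 in the FAM60A experiment and 3.28 to 3.34 in the SDS3 experiment. No label says if the 2 experiments went through RMA jointly. Scaling each array to its spike-in probe sets moved the median change of all tested genes to -0.124 for FAM60A siRNA and -0.317 for SDS3 siRNA. With that scaling 21 members fell and 1 rose with FAM60A siRNA, beside 12.1% and 7.24% of all tested genes. With SDS3 siRNA 39 members fell and 1 rose, beside 49% and 2.67% of all tested genes, so that much of the array fell with them. Against hybridisation controls, a scaling chosen after seeing the data, 16 fell and 3 rose with FAM60A siRNA, beside 9.2% and 19% of all tested genes, and 24 fell and 2 rose with SDS3 siRNA, beside 23.4% and 9%. The FAM60A calls of ORC3, CDT1, MCM10, CDC45, CDC7 and POLA2 were lost under both scalings, those of POLD1 and UHRF1 under the first alone, and those of ORC6, POLE3, PCNA, RPA1 and FEN1 under the second alone. The SDS3 calls of ORC6 and UHRF1 were lost under both, and that of POLD1 under the first.

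**Figure D1:**
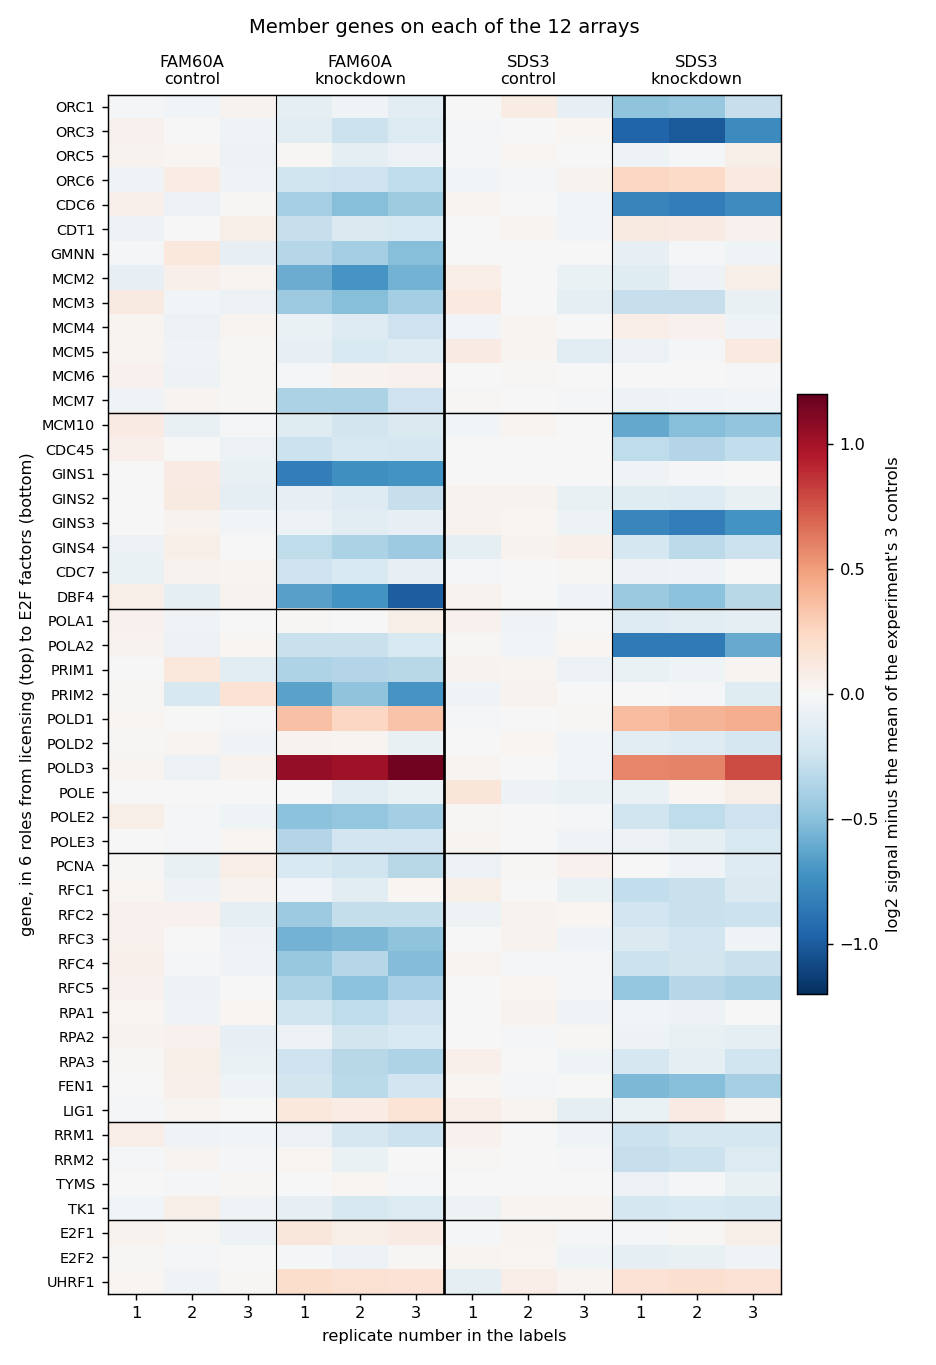
Log2 intensity of the 49 genes on each array minus the mean of the 3 control arrays of the same experiment, with genes in rows grouped by role and the 12 arrays in columns. Blue is below and red above the controls; most rows turn blue in the knockdown columns, MCM2 and GINS1 with FAM60A siRNA and ORC3 and GINS3 with SDS3 siRNA, while POLD3 turns red in both.

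Of the 13 origin recognition and licensing genes, 8 fell and none rose with FAM60A siRNA, beside 17.6% and 19.2% of all tested genes. With SDS3 siRNA 3 fell and 1 rose, beside 18.8% and 15.8%. MCM2, a subunit of the helicase ring, had the largest fall of the group with FAM60A siRNA. Its log2 intensities were 11.84, 11.99 and 11.97 in the controls and 11.33, 11.22 and 11.36 in the knockdown, 64.9% of control (log2 change -0.62, SE 0.0652, adjusted p = 2.74e-05). On SDS3 siRNA MCM2 read 11.25, 11.16 and 11.09 in the controls and 11.03, 11.11 and 11.24 in the knockdown, and these arrays overlapped (log2 change -0.045, SE 0.0701, adjusted p = 0.675). The change of MCM2 differed between the knockdowns (difference, SDS3 minus FAM60A, 0.58, 95% interval 0.37 to 0.79, adjusted p = 0.000576), a call that did not hold with spike-in scaling (0.36, adjusted p = 0.247). MCM3, another subunit of the ring, fell from 11.90, 11.77 and 11.73 to 11.36, 11.29 and 11.39 with FAM60A siRNA (log2 change -0.46, adjusted p = 0.00022). MCM3 in the SDS3 experiment read 11.19, 11.07 and 10.95 in the controls and 10.79, 10.80 and 10.98 in the knockdown, with overlap, and did not pass (-0.22, adjusted p = 0.0646). MCM7 also fell with FAM60A siRNA (-0.34), so that 3 of the 6 ring subunits fell. MCM4 (-0.16), MCM5 (-0.15) and MCM6 (0.023) did not pass, and none of the 6 passed with SDS3 siRNA, where their changes ran from -0.22 to 0.025.

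Among the loading factors, ORC3 and CDC6 had the largest falls with SDS3 siRNA. ORC3, a core subunit of the origin recognition complex, read 9.44, 9.45 and 9.49 in the controls and 8.497, 8.45 and 8.70 in the knockdown, 53.1% of control (log2 change -0.91, SE 0.0697, adjusted p = 2.41e-05). With FAM60A siRNA it went from 10.19, 10.15 and 10.10 to 10.01, 9.89 and 9.99, lower without overlap but by little (-0.18, adjusted p = 0.0299). That smaller call of ORC3 was lost without control replicate 1, control replicate 2, knockdown replicate 2 or knockdown replicate 3, where the adjusted p ran from 0.0551 to 0.114, and under both scalings to control probe sets. The difference of ORC3 was -0.73 (95% interval -0.92 to -0.53, adjusted p = 4.68e-05), and it passed under every setting tried. The only ORC3 probe set is of a class that marks sequence other transcripts may share, so leaving such probe sets out could not check it. CDC6, the ATPase that brings the helicase to the origin, fell in both knockdowns. It read 11.55, 11.43 and 11.51 in the controls and 11.10, 10.99 and 11.07 with FAM60A siRNA (-0.45, SE 0.0597, adjusted p = 0.00016). In the SDS3 experiment CDC6 read 10.39, 10.36 and 10.32 in the controls and 9.56, 9.52 and 9.60 in the knockdown (-0.79, SE 0.0502, adjusted p = 9.32e-06), 57.7% of control, and the arrays did not overlap in either experiment. The fall of CDC6 was larger with SDS3 siRNA (difference -0.35, adjusted p = 0.00342). The other CDC6 probe set fell in both as well (-0.41 and -0.64), but its difference did not pass (-0.23, adjusted p = 0.178). ORC1, the ATPase subunit of the complex whose level rises in G1, fell with SDS3 siRNA (-0.40, adjusted p = 0.00282) and read -0.092 with FAM60A siRNA (adjusted p = 0.228).

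ORC6, the smallest subunit of the complex, passed in opposite directions, as did 2.59% of all tested genes. The only ORC6 probe set, 219105_x_at, is of a class that marks sequence other transcripts may share. Its log2 intensities were 10.72, 10.85 and 10.72 in the controls and 10.52, 10.51 and 10.45 with FAM60A siRNA (-0.27, SE 0.059, adjusted p = 0.00441). With SDS3 siRNA they were 10.03, 10.05 and 10.11 in the controls and 10.31, 10.29 and 10.18 in the knockdown (0.20, SE 0.0565, adjusted p = 0.0261). The arrays were separate in both experiments, below the controls in the former and above in the latter, and the difference was 0.46 (95% interval 0.29 to 0.63, adjusted p = 0.000666). None of the 3 calls held with hybridisation control scaling, where the fall was -0.21 (adjusted p = 0.111), the rise 0.12 (adjusted p = 0.34) and the difference 0.33 (adjusted p = 0.0569). The rise with SDS3 siRNA turned to -0.13 with spike-in scaling (adjusted p = 0.428), and it was lost without control replicate 1, control replicate 2, knockdown replicate 1 or knockdown replicate 2 (adjusted p 0.0699 to 0.0944). The licensing factor CDT1 (-0.21) and its inhibitor GMNN (-0.42, adjusted p = 0.000855) both fell with FAM60A siRNA. The call of CDT1 did not hold without control replicate 3 (adjusted p = 0.0711) or knockdown replicate 1 (adjusted p = 0.0618). With SDS3 siRNA neither passed, at 0.086 and -0.057. The other CDT1 probe set did not pass with FAM60A siRNA (-0.18, adjusted p = 0.0524) or SDS3 siRNA (-0.15, adjusted p = 0.0794). Nor did its difference (0.029, adjusted p = 0.844). ORC5, another core subunit, did not pass in either knockdown (-0.056 and -0.0003).

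**Figure D2:**
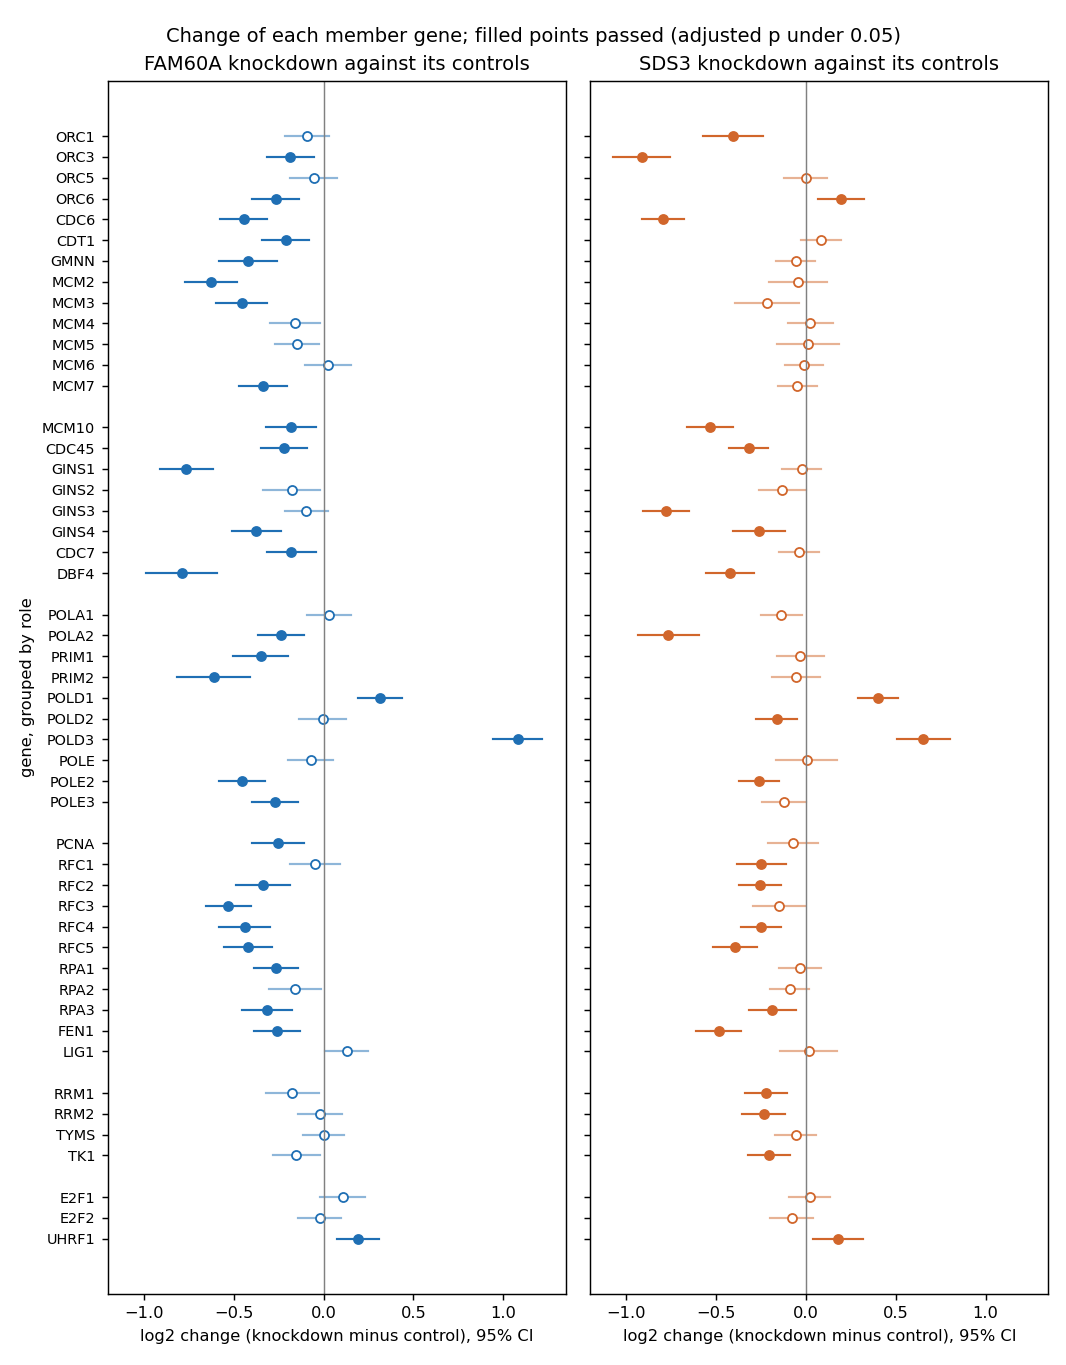
Log2 change of each of the 49 genes, knockdown minus its own control, with 95% intervals from limma, for FAM60A siRNA and SDS3 siRNA. Filled points passed at adjusted p under 0.05; the falls with FAM60A siRNA are led by DBF4 and GINS1 and those with SDS3 siRNA by ORC3 and CDC6, and POLD3 has the largest rise in both.

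Of the 8 genes of helicase activation, 6 fell with FAM60A siRNA, beside 17.6% of all tested genes, and 5 with SDS3 siRNA, beside 18.8%. None rose, beside 19.2% and 15.8%. DBF4, the regulatory subunit of the kinase that fires origins, had the largest fall of all members with FAM60A siRNA. It read 11.60, 11.41 and 11.57 in the controls and 10.87, 10.81 and 10.54 in the knockdown, 57.9% of control (-0.79, SE 0.089, adjusted p = 4.77e-05). In the SDS3 experiment it read 10.15, 10.11 and 10.07 and 9.67, 9.62 and 9.78, 74.6% of control (-0.42, SE 0.0583, adjusted p = 0.000624). The arrays were separate in both, and the fall was smaller with SDS3 siRNA (difference 0.37, adjusted p = 0.0305). That difference of DBF4 was lost without FAM60A control replicate 1 or 3, FAM60A knockdown replicate 3, SDS3 control replicate 2 or 3, or SDS3 knockdown replicate 3, with adjusted p from 0.0547 to 0.0727. Its partner CDC7, the catalytic subunit, fell by 0.18 with FAM60A siRNA (adjusted p = 0.0447) and read -0.036 with SDS3 siRNA. The call of CDC7 was lost without control replicate 2, control replicate 3, knockdown replicate 1 or knockdown replicate 2 (adjusted p 0.101 to 0.138).

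The GINS complex has 4 subunits, and in each knockdown a different subunit had the largest fall. GINS1 read 12.90, 13.01 and 12.82 in the controls and 12.08, 12.17 and 12.19 with FAM60A siRNA, 58.9% of control (-0.76, SE 0.0657, adjusted p = 6.72e-06). GINS1 in the SDS3 experiment read 11.75, 11.74 and 11.74 in the controls and 11.70, 11.72 and 11.74 in the knockdown (-0.023, SE 0.0468, adjusted p = 0.755), 98.4% of control. GINS1 was far below its controls in the FAM60A experiment, while in the SDS3 experiment its arrays lay just under theirs. GINS3 showed the other pattern: 9.56, 9.54 and 9.46 in the controls and 8.74, 8.69 and 8.81 with SDS3 siRNA, 58.3% of control (-0.78, SE 0.0558, adjusted p = 1.74e-05). With FAM60A siRNA GINS3 read 9.80, 9.85 and 9.78 in the controls and 9.74, 9.69 and 9.71 in the knockdown (-0.097, SE 0.0538, adjusted p = 0.196). Both differences passed, GINS1 at 0.74 (95% interval 0.57 to 0.91, adjusted p = 1.33e-05) and GINS3 at -0.68 (95% interval -0.84 to -0.52, adjusted p = 1.29e-05). With spike-in scaling the difference of GINS1 was 0.52 (adjusted p = 0.0613) and did not pass, while that of GINS3 passed under every setting tried. The other GINS3 probe set fell with SDS3 siRNA as well (-0.74) and read -0.18 with FAM60A siRNA. GINS4 fell in both, from 9.005, 9.14 and 9.07 to 8.77, 8.69 and 8.63 with FAM60A siRNA (-0.37, adjusted p = 0.000673). With SDS3 siRNA GINS4 went from 7.74, 7.89 and 7.92 to 7.64, 7.54 and 7.59 (-0.26, adjusted p = 0.0117); neither call held when all 4 GINS4 probe sets were averaged. GINS2 did not pass in either knockdown (-0.18 and -0.13).

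MCM10 and CDC45, which join the helicase as it is activated, fell in both knockdowns. MCM10 read 10.44, 10.51 and 10.48 in the controls and 9.86, 9.96 and 10.00 with SDS3 siRNA (-0.53, SE 0.0559, adjusted p = 0.000137). Its other 2 probe sets fell further in that experiment, by 0.77 and 1.10. With FAM60A siRNA MCM10 read 11.18, 11.00 and 11.07 in the controls and 10.94, 10.86 and 10.91 in the knockdown (-0.18, SE 0.0625, adjusted p = 0.0442), and the difference was -0.35 (adjusted p = 0.00625). The FAM60A call of MCM10 was lost on leaving out any array but control replicate 2 (adjusted p 0.0596 to 0.175). Its other probe sets passed there at -0.27 and -0.35. CDC45 went from 9.74, 9.68 and 9.61 to 9.42, 9.48 and 9.48 with FAM60A siRNA (-0.22, adjusted p = 0.0116), a call lost without control replicate 1 (adjusted p = 0.0549). With SDS3 siRNA it went from 9.08, 9.08 and 9.07 to 8.77, 8.73 and 8.78 (-0.32, adjusted p = 0.000964), and its arrays were separate in both experiments.

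**Figure D3:**
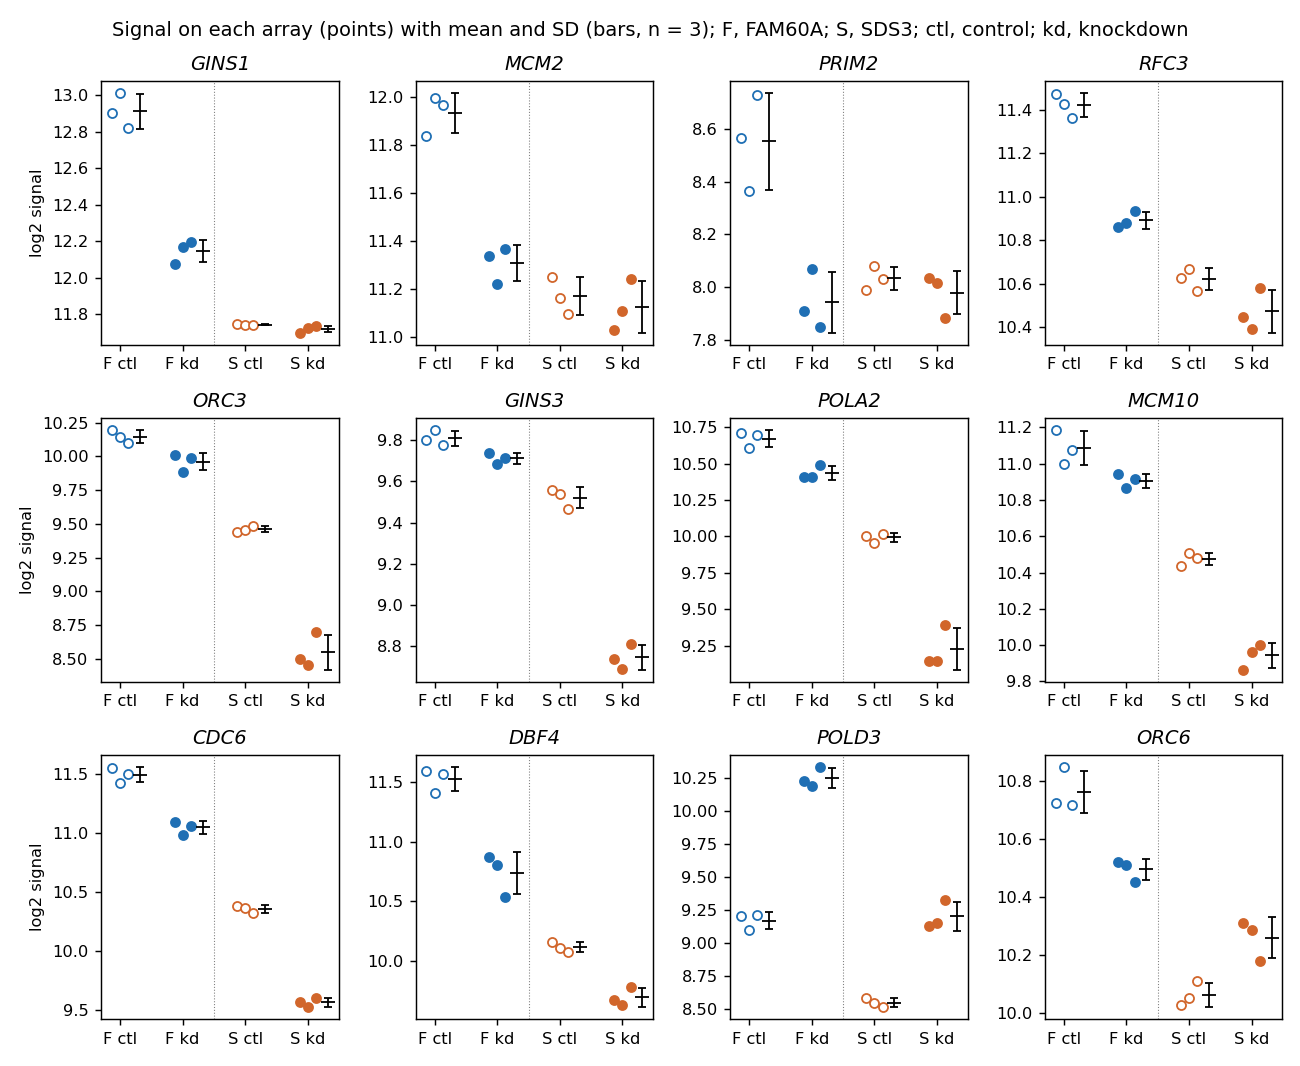
Log2 intensity on each array (points) with the mean and SD of each group of 3 (bars) for 12 members with large changes or differences, FAM60A experiment left and SDS3 experiment right in each panel; the vertical axes do not start at 0. GINS1, MCM2 and PRIM2 lie well below their controls with FAM60A siRNA and close to them with SDS3 siRNA, ORC3 and GINS3 show the wider gap with SDS3 siRNA, and POLD3 lies above its controls in both.

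The polymerase genes moved in both directions: 5 of 10 fell and 2 rose with FAM60A siRNA, beside 17.6% and 19.2% of all tested genes. With SDS3 siRNA 3 fell and 2 rose, beside 18.8% and 15.8%. PRIM2, the regulatory primase subunit, had the largest fall here with FAM60A siRNA, from 8.57, 8.36 and 8.73 to 7.91, 8.07 and 7.85, 65.5% of control (-0.61, SE 0.0922, adjusted p = 0.000366). PRIM2 in the SDS3 experiment read 7.99, 8.08 and 8.03 in the controls and 8.03, 8.02 and 7.88 in the knockdown, with overlap (-0.055, SE 0.059, adjusted p = 0.52). The difference of PRIM2 was 0.56 (95% interval 0.30 to 0.81, adjusted p = 0.00336), or 0.33 with spike-in scaling (adjusted p = 0.287). PRIM1, the catalytic primase subunit, likewise fell with FAM60A siRNA (-0.35, adjusted p = 0.00217) and read -0.032 with SDS3 siRNA. The difference of PRIM1 (0.32, adjusted p = 0.0192) was lost without SDS3 control replicate 3 (adjusted p = 0.0502). POLA1, the catalytic subunit of polymerase alpha, did not pass in either (0.028 and -0.14).

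POLA2, the accessory subunit that tethers polymerase alpha to primase, has 3 probe sets, of which 1 passed in each knockdown. The brightest, 204441_s_at, read 10.71, 10.60 and 10.70 in the controls and 10.41, 10.40 and 10.49 with FAM60A siRNA. In the fit of all probe sets this was a fall of 0.24 (SE 0.0611, adjusted p = 0.0159), a call lost without control replicate 1, control replicate 3 or knockdown replicate 2 (adjusted p 0.0548 to 0.0646). With SDS3 siRNA the same probe set read 10.00, 9.96 and 10.02 in the controls and 9.15, 9.14 and 9.39 in the knockdown, 58.8% of control (-0.77, SE 0.0779, adjusted p = 0.000197). The difference at this probe set was -0.53 (adjusted p = 0.00215). Probe set 236546_at read 7.67, 7.84 and 7.79 in the controls and 7.64, 7.72 and 7.76 with FAM60A siRNA, with overlap (-0.055, adjusted p = 0.609). In the SDS3 experiment it read 6.99, 6.92 and 6.90 and 6.83, 6.82 and 6.50, all knockdown arrays below the controls (-0.22, 95% interval -0.43 to -0.0098, adjusted p = 0.127). Its difference was -0.16 (adjusted p = 0.386), so this probe set did not pass in any comparison. Probe set 244575_at read 7.91, 7.95 and 7.72 in the controls and 7.78, 7.53 and 7.70 with FAM60A siRNA, with overlap (-0.19, adjusted p = 0.138). With SDS3 siRNA it read 6.43, 6.38 and 6.29 in the controls and 6.38, 6.42 and 6.41 in the knockdown, again with overlap (0.037, 95% interval -0.099 to 0.17, adjusted p = 0.714), and its difference was 0.23 (adjusted p = 0.18). The 95% intervals of the last 2 probe sets in the SDS3 experiment do not reach the -0.77 of the brightest, whose class on this array marks sequence that other transcripts may share.

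POLD3 and POLD1, subunits of polymerase delta, rose in both knockdowns. POLD3, an accessory subunit, read 9.20, 9.10 and 9.21 in the controls and 10.23, 10.19 and 10.33 with FAM60A siRNA, 2.11 times control (1.08, SE 0.0617, adjusted p = 3.73e-07). With SDS3 siRNA it read 8.59, 8.55 and 8.52 in the controls and 9.13, 9.15 and 9.33 in the knockdown, 1.57 times control (0.65, SE 0.0645, adjusted p = 9.65e-05). These were the largest rises among the members, with no overlap, and the rise was smaller with SDS3 siRNA (difference -0.43, adjusted p = 0.00288). The other POLD3 probe set, 239816_at, read -0.089 (95% interval -0.26 to 0.083) and 0.0033 (95% interval -0.14 to 0.14) and did not pass in either, so the rise rests on 1 probe set. POLD1, the catalytic subunit, has 1 probe set and rose from 10.18, 10.16 and 10.14 to 10.51, 10.41 and 10.502 with FAM60A siRNA (0.31, adjusted p = 0.00108). With SDS3 siRNA POLD1 went from 9.45, 9.47 and 9.48 to 9.84, 9.87 and 9.90 (0.40, adjusted p = 0.000292); the arrays were separate in both, and neither call held with spike-in scaling. POLD2, another subunit, read -0.0038 with FAM60A siRNA and fell by 0.16 with SDS3 siRNA (adjusted p = 0.0331), a call lost on leaving out any 1 of the 6 arrays (adjusted p 0.0557 to 0.111). Of polymerase epsilon, the accessory subunit POLE2 fell in both. It went from 10.52, 10.43 and 10.40 to 9.96, 9.98 and 10.05 with FAM60A siRNA (-0.45, adjusted p = 0.000123). POLE2 went from 9.60, 9.59 and 9.56 to 9.35, 9.28 and 9.34 with SDS3 siRNA (-0.26, adjusted p = 0.00322). POLE3, a small histone-fold subunit, fell with FAM60A siRNA (-0.27) and read -0.12 with SDS3 siRNA, and the catalytic subunit POLE did not pass in either (-0.072 and 0.0043).

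**Figure D4:**
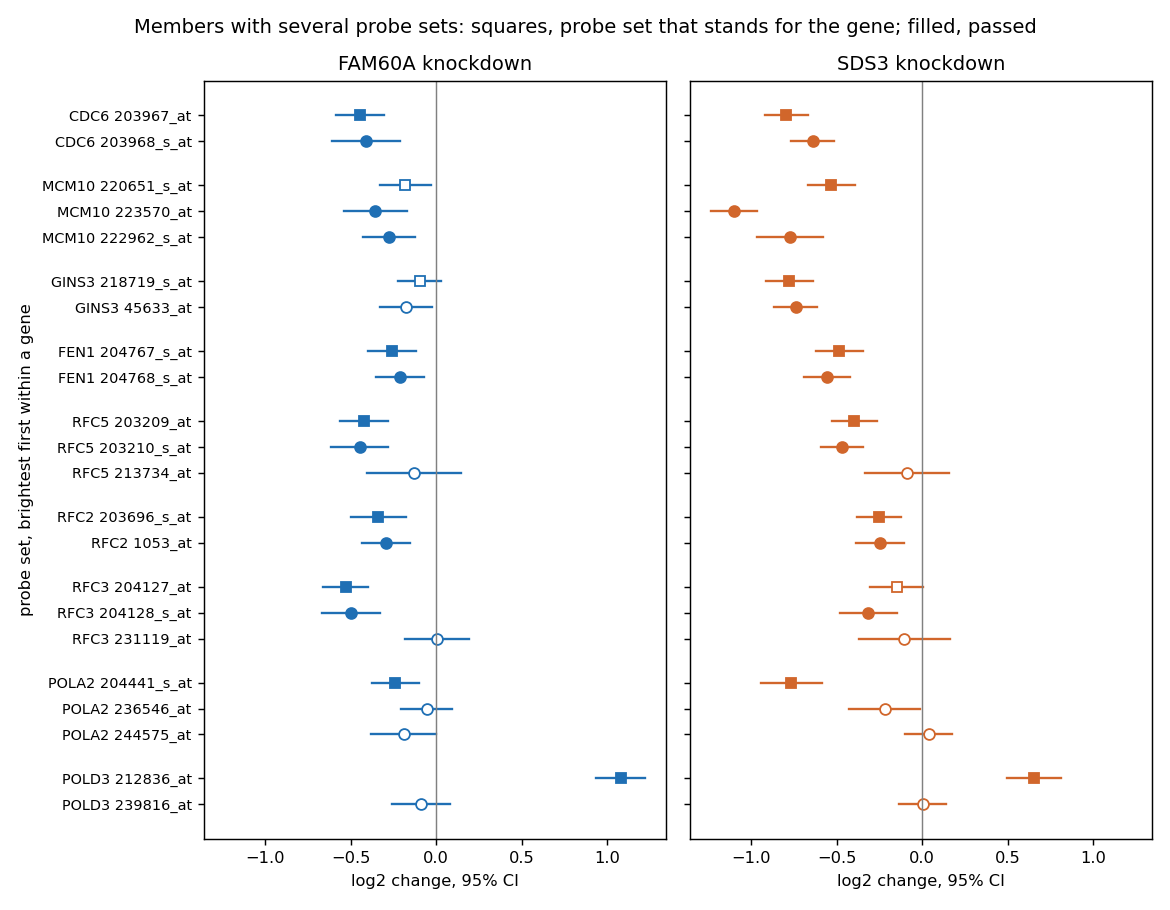
Log2 change with 95% interval at every probe set of 9 members that have several, for FAM60A siRNA and SDS3 siRNA; squares mark the brightest probe set of each gene, circles the others, and filled symbols passed at adjusted p under 0.05. Every probe set of CDC6, MCM10 and RFC2 is below 0 and filled in the SDS3 knockdown, those of MCM10 from -0.53 to -1.098, while POLD3 and POLA2 each have 1 filled probe set there.

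At the fork, 8 of the 11 genes of the clamp, its loader, RPA and Okazaki fragment processing fell with FAM60A siRNA. With SDS3 siRNA 6 fell, and none rose in either knockdown. Of all tested genes 17.6% and 18.8% fell, and 19.2% and 15.8% rose. The RFC clamp loader fell in 4 of its 5 subunits in each knockdown, with RFC1 outside the 4 with FAM60A siRNA (-0.047) and RFC3 outside them with SDS3 siRNA. RFC3 read 11.48, 11.43 and 11.36 in the controls and 10.86, 10.88 and 10.94 with FAM60A siRNA (-0.53, SE 0.0568, adjusted p = 3.27e-05). With SDS3 siRNA it read 10.63, 10.67 and 10.57 in the controls and 10.45, 10.39 and 10.58 in the knockdown, with overlap (-0.15, adjusted p = 0.107), and the difference was 0.38 (adjusted p = 0.00376). A further RFC3 probe set fell in both knockdowns (-0.50 and -0.31), and its difference did not pass. With the mean of all 3 RFC3 probe sets the fall with FAM60A siRNA was -0.34 (adjusted p = 0.00044). The difference was then 0.15 and did not pass (adjusted p = 0.196). RFC5 fell in both, from 11.83, 11.71 and 11.77 to 11.40, 11.28 and 11.38 with FAM60A siRNA (-0.42, adjusted p = 0.000243). With SDS3 siRNA RFC5 went from 11.35, 11.37 and 11.32 to 10.88, 11.01 and 10.96 (-0.40, adjusted p = 0.000569), and the difference was 0.024 (95% interval -0.14 to 0.19). RFC4 went from 11.87, 11.78 and 11.77 to 11.36, 11.47 and 11.28 with FAM60A siRNA (-0.44, adjusted p = 0.000285). RFC4 on SDS3 siRNA went from 11.07, 11.02 and 11.02 to 10.78, 10.82 and 10.77 (-0.25, adjusted p = 0.00425). RFC2 went from 10.60, 10.60 and 10.44 to 10.11, 10.25 and 10.26 with FAM60A siRNA (-0.34, adjusted p = 0.00239). RFC2 on SDS3 siRNA went from 10.12, 10.22 and 10.20 to 9.95, 9.91 and 9.92 (-0.25, adjusted p = 0.00492). The arrays of RFC2, RFC4 and RFC5 were separate from the controls in both experiments, and the other RFC2 probe set fell in both too (-0.29 and -0.25). RFC1, the large subunit, fell with SDS3 siRNA (-0.25, adjusted p = 0.0127), a call lost without knockdown replicate 1 (adjusted p = 0.0519) and without probe sets of shared sequence.

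PCNA, the clamp itself, fell with FAM60A siRNA (-0.25, adjusted p = 0.0103) and read -0.071 with SDS3 siRNA. Of the RPA trimer, which coats single-stranded DNA, RPA3 fell in both knockdowns. It went from 13.14, 13.20 and 13.05 to 12.88, 12.80 and 12.76 with FAM60A siRNA (-0.32, adjusted p = 0.0022). RPA3 went from 12.42, 12.35 and 12.31 to 12.16, 12.24 and 12.12 with SDS3 siRNA (-0.19, adjusted p = 0.0339), and that call was lost without control replicate 1, control replicate 2, knockdown replicate 1 or knockdown replicate 3 (adjusted p 0.0837 to 0.0973). RPA1, the large subunit, fell with FAM60A siRNA (-0.26, adjusted p = 0.0032) and read -0.032 with SDS3 siRNA. The fall was -0.089 with the mean of the 3 RPA1 probe sets (adjusted p = 0.151), the other 2 reading -0.13 and 0.13 without passing. The difference of RPA1 (0.23, adjusted p = 0.0257) was lost without FAM60A control replicate 1 or 3, FAM60A knockdown replicate 2 or SDS3 control replicate 3 (adjusted p 0.0566 to 0.065). RPA2 did not pass in either (-0.16 and -0.091). FEN1, the nuclease that removes the flaps of Okazaki fragments, fell in both. It went from 12.50, 12.57 and 12.45 to 12.29, 12.18 and 12.27 with FAM60A siRNA (-0.26, adjusted p = 0.00512). FEN1 went from 11.998, 11.96 and 11.98 to 11.44, 11.47 and 11.58 with SDS3 siRNA (-0.48, adjusted p = 0.000211), and the other FEN1 probe set fell in both as well (-0.21 and -0.56). The difference of FEN1 (-0.23, adjusted p = 0.0476) was lost on leaving out any array but FAM60A control replicate 2, FAM60A knockdown replicate 2 or SDS3 knockdown replicate 3 (adjusted p 0.0693 to 0.114). LIG1, the ligase that seals the fragments, did not pass in either (0.13 and 0.017).

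Of 4 genes of nucleotide supply, none passed with FAM60A siRNA, beside 36.8% of all tested genes, and 3 fell with SDS3 siRNA, beside 18.8%. The difference passed in RRM2 and not in the other 3, so a pattern of the group between the knockdowns was not shown. RRM2, the small subunit of ribonucleotide reductase, read 12.41, 12.40 and 12.38 in the controls and 12.12, 12.14 and 12.23 with SDS3 siRNA (-0.23, SE 0.0524, adjusted p = 0.00836). With FAM60A siRNA it read 13.24, 13.29 and 13.24 in the controls and 13.28, 13.18 and 13.26 in the knockdown, with overlap (-0.018, adjusted p = 0.834). The difference of -0.22 (adjusted p = 0.0402) turned to 0.088 when the gene was read from its other probe set, at which the change passed with FAM60A siRNA (-0.22, adjusted p = 0.0489) and not with SDS3 siRNA (-0.13, adjusted p = 0.137), and it was lost on leaving out any array but FAM60A control replicate 2, FAM60A knockdown replicate 2 or SDS3 knockdown replicate 3 (adjusted p 0.0624 to 0.0974). RRM1, the large subunit, read 11.84, 11.78 and 11.74 in the controls and 11.53, 11.59 and 11.58 with SDS3 siRNA (-0.22, adjusted p = 0.0105). In the FAM60A experiment RRM1 read 12.62, 12.50 and 12.51 and 12.47, 12.34 and 12.29, lower without overlap but not past the threshold (-0.17, adjusted p = 0.0643). TK1, the salvage kinase for thymidine, fell with SDS3 siRNA (-0.20, adjusted p = 0.0143), a call lost without control replicate 2 (adjusted p = 0.0596) or control replicate 3 (adjusted p = 0.0526). TK1 read -0.15 with FAM60A siRNA, and thymidylate synthase, TYMS, did not pass in either (0.0011 and -0.057).

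The activating factors E2F1 (0.11 and 0.021) and E2F2 (-0.022 and -0.078) did not pass in either knockdown. UHRF1, which links replication to maintenance of DNA methylation, rose in both as deposited, while with spike-in scaling neither call held, at 0.09 with FAM60A siRNA (adjusted p = 0.669) and -0.14 with SDS3 siRNA (adjusted p = 0.368). It went from 11.10, 11.03 and 11.09 to 11.29, 11.25 and 11.25 with FAM60A siRNA (0.19, adjusted p = 0.0163). In the SDS3 experiment it went from 11.01, 11.20 and 11.16 to 11.30, 11.31 and 11.29 (0.18, adjusted p = 0.0489); this call was lost on leaving out any array but control replicate 2 (adjusted p 0.0785 to 0.122).

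Between the knockdowns, 13 of the 49 genes fell in both, beside 8.76% of all tested genes, 3 rose in both (POLD1, POLD3 and UHRF1), beside 9.33%, and 1, ORC6, passed in opposite directions. The 13 were 48.1% of the 27 that fell with FAM60A siRNA and 65% of the 20 that fell with SDS3 siRNA. Over all tested genes these shares were 49.8% and 46.7%. Another 13 passed with FAM60A siRNA alone, 7 with SDS3 siRNA alone and 12 in neither, beside 3004, 2588 and 9178 of the 18621 tested genes. The difference itself passed in 20 of the 49, beside 25.3% of all tested genes: in 9 the SDS3 change was the lower, beside 15.3%, and in 11 it was the higher, beside 9.99%. It passed in 9 of the 13 genes called with FAM60A siRNA alone and in 3 of the 7 called with SDS3 siRNA alone. Over all tested genes it passed in 1589 of those 3004 and in 1378 of those 2588. The 11 were ORC6, CDT1, GMNN, MCM2, MCM7, GINS1, DBF4, PRIM1, PRIM2, RFC3 and RPA1, and the 9 were ORC1, ORC3, CDC6, MCM10, GINS3, POLA2, POLD3, FEN1 and RRM2. This split moved with the scaling: with spike-in scaling the difference passed in 6 genes with the SDS3 change lower and in none with it higher, beside 12.6% and 1.03% of all tested genes, and against hybridisation controls in 9 lower and 3 higher, beside 20.2% and 2.88%. Quantile normalization of the 12 arrays gave 7 lower and 13 higher, beside 14.2% and 12.1%. The split of all tested genes moved the same way as that of the members. The 6 were ORC3, CDC6, MCM10, GINS3, POLA2 and POLD3, and against hybridisation controls the 3 higher were MCM2, GINS1 and PRIM2. The difference of ORC1 (-0.31, adjusted p = 0.0218) was lost without FAM60A knockdown replicate 2, SDS3 control replicate 2, or SDS3 knockdown replicate 1 or 2 (adjusted p 0.0521 to 0.0601). Across the 49 genes the changes of the knockdowns had Pearson r = 0.45 and Spearman rho = 0.35, and 83.7% had the same sign; across all tested genes the values were 0.56, 0.41 and 60.1%. These are descriptions across genes, which are not independent replicates, and the 2 experiments share no arrays.

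**Figure D5:**
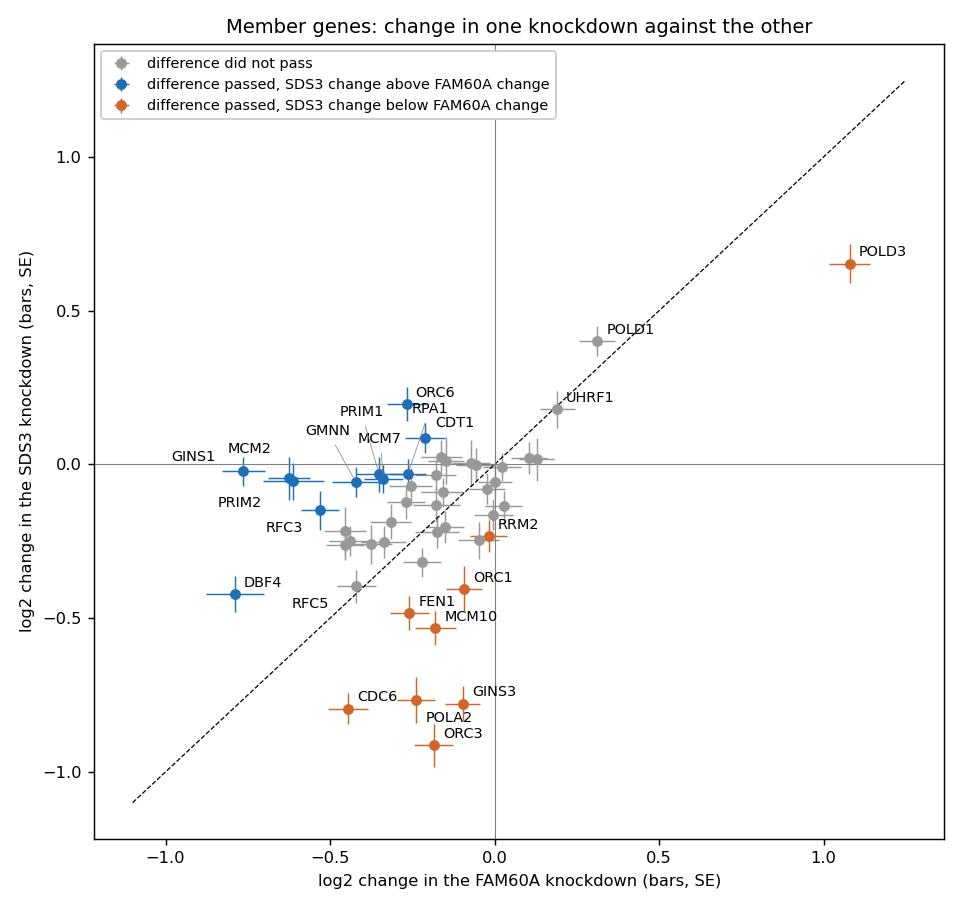
Log2 change with SDS3 siRNA (vertical) against log2 change with FAM60A siRNA (horizontal) for the 49 genes, with bars of 1 SE and a dashed line of equal change. Coloured points passed in the difference; GINS1, MCM2 and PRIM2 lie left of the line near 0 on the vertical axis, and ORC3 and GINS3 lie far below it.

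The other probe sets of the members passed in part. Of all probe sets tested on the array, 26.8% passed with FAM60A siRNA, 24.2% with SDS3 siRNA and 16.9% in the difference. Of 19 further probe sets that belong to genes called with FAM60A siRNA, 8 passed in the same direction, 11 did not pass and none passed in the opposite direction. The counts were the same with SDS3 siRNA, 8 of 19 and none opposite. For the difference, 4 of 15 passed in the same direction and none in the opposite one. By gene, 7 of 12 called genes with a further probe set had a call in the same direction with FAM60A siRNA, and 7 of 13 with SDS3 siRNA.

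Of 38 further fork and origin genes, 18 fell and 4 rose with FAM60A siRNA (median -0.14), and 11 fell and 6 rose with SDS3 siRNA (median -0.076); 57.9% and 44.7% of this list passed in either direction, beside 36.8% and 34.6% of all tested genes. ASF1A, a histone chaperone, fell most with FAM60A siRNA (-0.98), followed by DTYMK, which makes dTDP (-0.57), and TIPIN of the fork protection complex (-0.56). USP1, a deubiquitinase that acts on PCNA (0.41), DONSON (0.35) and MCM9 (0.31) had the largest rises. With SDS3 siRNA the largest falls were those of POLE4, a small subunit of polymerase epsilon (-0.81), ASF1A (-0.65) and TIPIN (-0.47). The largest rises were those of USP1 (0.44), RRM2B, a ribonucleotide reductase subunit induced by p53 (0.42), and SAMHD1, which degrades dNTPs (0.30). Of 33 genes of the G1/S switch, 10 fell and 5 rose with FAM60A siRNA (median -0.13), and 12 fell and 5 rose with SDS3 siRNA (median -0.11). In either direction 45.5% and 51.5% of them passed, beside the same shares of all tested genes, and the rises were 5 of 33 in each knockdown, beside 19.2% and 15.8%. SKP2, a ubiquitin ligase subunit that targets p27, had the largest fall in both (-1.14 and -0.75), and the repressor E2F7 fell in both (-0.74 and -0.54). The phosphatase gene CDC25A was the other of the 3 largest falls with FAM60A siRNA (-0.57), and LIN52, a subunit of the DREAM complex, with SDS3 siRNA (-0.73). The largest rises were DYRK1A (0.28), CCND2 (0.27) and the CDK inhibitor CDKN1A (0.24) with FAM60A siRNA. With SDS3 siRNA they were the CDK inhibitor CDKN1C (0.47), cyclin E1, CCNE1 (0.38), and the pocket protein gene RBL2 (0.29).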

How the data were processed

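Biotin-labelled cRNA from 1 ug of total RNA per sample was hybridised to 1-colour arrays with 54675 probe sets. The deposited values are intensity on a linear scale after RMA by the authors, per the submitters' processing notes, with no version or settings given; their log2 was taken, though the design had foreseen that they might already be log2. RMA removes a shift shared by most transcripts. The platform annotation gave 41097 probe sets 1 symbol, 1801 several and 11777 none; 41043 of the 41097 were matched by Entrez ID to RefSeq's GRCh38.p14 table. A gene was its single-gene probe set with the highest mean, tested where at least 3 of 12 arrays reached log2 5.

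Each knockdown was fitted with its own 6 arrays, and the difference as a contrast over 12 arrays, in limma 3.58.1 (R 4.3.3, data.table version 1.17.8; lmFit and eBayes), with Benjamini-Hochberg adjustment over all tested genes and a threshold of 0.05. Every adjusted p given is from limma. POLA2 and other further probe sets come from a fit of all 48347 probe sets that reached that level. The number of arrays limits the precision. The steps were tested on simulated data. The members and lists were chosen with earlier results of these data known. Values on every array are given for members that passed with the same sign in both knockdowns, the 8 largest passing differences, the 2 largest passing changes per role and knockdown, and POLA2; of the further pathway lists the 3 largest passing rises and falls were named. MMS22L, CDKN2C and SFTPA1 of the lists had no probe set of their own here, and PTPRC was below the level filter. The alternatives were other filters, probe set rules, scalings, fits, thresholds, a replicate block and leaving out each array.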

Additional observations from a re-analysis of the deposited data

Results flagged for a closer look

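ORC6 differed in its change between the 2 knockdowns, with a fall on FAM60A siRNA (-0.27) and a rise on SDS3 siRNA (0.20). Its only probe set is of a class that marks sequence other transcripts may share, so leaving such probe sets out could not check it. The difference, tested in 1 fit of 12 arrays, was 0.46 on the log2 scale (limma adjusted p = 0.000666), with 3 of 3 knockdown arrays below the controls in the former and 3 of 3 above in the latter. It was 0.24 with spike-in scaling (adjusted p = 0.47) and 0.33 with hybridisation control scaling (adjusted p = 0.0569). Groups of 3 arrays are too small for a test of single outlying samples.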

How the results depend on the processing

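All 74 member calls held under a filter at log2 7, with all 12 arrays in 1 fit and with trend and robust eBayes. The difference was already fitted over 12 arrays, so its calls could not change with all 12 arrays in 1 fit. Without a filter and with arrays centred on their medians 72 held, and with quantile normalization 71. With the mean of all probe sets 66 held, and without probe sets of shared sequence 65. Genes whose probe sets were all of shared sequence, such as MCM2, ORC3, ORC6 and GMNN, kept them in that setting. It could not check their calls. At adjusted p under 0.01, 53 held, and with a minimum of 1.5-fold 13. With spike-in scaling 49 held and 2 reversed, the SDS3 changes of ORC6 (-0.13) and UHRF1 (-0.14); without probe sets of shared sequence the difference of RRM2 reversed (0.088). Members that passed with spike-in scaling numbered 40 with SDS3 siRNA and 6 in the difference, beside 51.7% and 13.6% of all tested genes. With FAM60A siRNA 13 of 38 fork and origin genes and 9 of 33 switch genes then passed, beside 19.3%. With hybridisation control scaling, added after seeing the data, 19 members passed with FAM60A siRNA and 12 in the difference, beside 28.2% and 23.1%. With FAM60A siRNA 12 of 38 fork and origin genes passed under it. With the 1.5-fold minimum 5 members passed in each knockdown and 3 in the difference, 1 and 2 fork and origin genes, and 2 and 2 switch genes. There 7.34% of all tested genes passed with FAM60A siRNA, 6.96% with SDS3 siRNA and 5.89% in the difference. With the mean of probe sets 11 switch genes passed with SDS3 siRNA, beside 33.1% of all tested genes. Of POLA2's probe sets the 1 that passed with FAM60A siRNA became 0 with spike-in scaling, hybridisation control scaling, adjusted p under 0.01 and the 1.5-fold minimum, and 0 to 1 on leaving out an array; with SDS3 siRNA spike-in scaling gave 2, and in the difference the 1.5-fold minimum gave 0. Leaving out each array gave 27 to 30 members with FAM60A siRNA, 19 to 23 with SDS3 siRNA and 15 to 20 in the difference, 17 to 23 and 14 to 20 fork and origin genes, and 14 to 18 and 15 to 18 switch genes. The shares of all tested genes were then 31.2% to 34.4%, 27.9% to 33.3% and 21.2% to 26.3%, in the same order. The cause of these shifts was not tested. With 3 arrays a group and changes mostly under 1.5-fold, small calls depend on single arrays.

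With the replicate number as a block, 27 members passed with FAM60A siRNA, 20 with SDS3 siRNA and 16 in the difference. The shares of all tested genes were 33.5%, 31.4% and 21.5%, and 11 of the 74 member calls were lost. Same-numbered samples did not deviate together, with correlations of -0.12 to -0.072 (FAM60A arrays) and -0.078 to 0.034 (SDS3 arrays), and only 1 control sample of the 12 arrays correlated best with its own number, so the numbers were not taken to pair the samples.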

Other observations

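Some members did not pass at their brightest probe set while a dimmer one did. MCM6 read 0.023 at its brightest probe set with FAM60A siRNA and rose by 0.64 at 238977_at (adjusted p = 0.000404). MCM4 fell at 212142_at with FAM60A siRNA (-0.20, adjusted p = 0.0335), beside -0.16 at the brightest. ORC5 fell at both of its dimmer probe sets with FAM60A siRNA (-0.25 and -0.34) and at 1 of them with SDS3 siRNA (-0.37), beside -0.056 and -0.0003 at the brightest. GINS2 fell at 243136_at in both knockdowns (-0.39 and -0.22). RRM2 fell at 201890_at with FAM60A siRNA (-0.22), where the brightest read -0.018.

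Among the further pathway genes, SLBP, which binds histone mRNA, and CDK2, the S-phase kinase, passed in opposite directions like ORC6; they were chosen after their values were seen. SLBP read 11.70, 11.63 and 11.67 in the controls and 11.37, 11.36 and 11.32 with FAM60A siRNA (-0.32), and 11.03, 11.11 and 11.05 and 11.30, 11.30 and 11.23 in the SDS3 experiment (0.21). CDK2 read 10.98, 10.81 and 10.88 and 10.53, 10.47 and 10.55 with FAM60A siRNA (-0.37), and 10.60, 10.58 and 10.59 and 10.77, 10.82 and 10.76 in the SDS3 experiment (0.19). The differences between the knockdowns passed, at 0.53 (limma adjusted p = 7.48e-05) and 0.57 (adjusted p = 8.42e-05).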
